A study of Mus musculus with 39 samples.

Results

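The 29 genes described here encode the enzymes and regulators with which a cell makes cholesterol and fatty acids. They were chosen by symbol from a list of pathway genes and not by their measured values, though with earlier results of these data known. All 29 were found among the 39017 genes of the count table, Msmo1 by its gene identifier under the older symbol Sc4mol. By role they comprise 7 enzymes of the mevalonate steps (Acat2, Hmgcs1, Mvk, Pmvk, Mvd, Idi1, Fdps), 11 enzymes from squalene to cholesterol (Fdft1, Sqle, Lss, Cyp51, Msmo1, Nsdhl, Hsd17b7, Tm7sf2, Ebp, Sc5d, Dhcr7), 4 genes of sterol sensing and transport (Insig1, Srebf1, Srebf2, Stard4) and 7 genes of fatty acid synthesis (Acly, Acaca, Fasn, Scd1, Scd2, Elovl6, Me1). All 29 passed the filter on low counts in each comparison.

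Cholesterol is built from acetyl-CoA through mevalonate and squalene, and fatty acids are built from the same acetyl-CoA through malonyl-CoA. Both arms are under the SREBP transcription factors, which Srebf1 and Srebf2 encode. When membrane sterol is low, SREBP moves from the endoplasmic reticulum to the Golgi, is cut there and enters the nucleus, while the proteins encoded by Insig genes hold it back when sterol is high. Tumour cells can make these lipids themselves or take them up, and liver, fat and sebaceous gland are tissues known for high lipid synthesis.

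The series measured RNA in sorted tumour cells, titled yfp, of pancreatic tumours grown in C57BL/6 mice. Clones of tumour cells had been implanted under the skin, the mice were not treated, and the tumours were taken 3 weeks later. The 39 libraries came from 20 clones of 13 parent lines: 18 libraries of 9 clones classed T cell low, 14 of 6 clones classed T cell high, 4 of 2 intermediate clones and 3 of 3 clones without a class. The study looked for genes expressed differently in tumour cells of the low and high classes. Each group is a small set of implanted clones of 1 mouse strain, and the labels give neither the genotype of the clones nor whether a clone was grown in more than 1 animal. Clones are named as in the titles, and the plots leave off the prefix yfp. Counts were therefore summed per clone, and p-values measure only the spread between these clones or libraries, which may be technical.

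Library totals ran from 7638130 to 103794674 counts, with a median of 34565903. All 5 epithelial markers (Krt7, Krt8, Krt18, Krt19, Epcam) were detected in each class, with a summed level of 3337 to 11750 CPM (counts divided by the library total and scaled to one fixed total). In 19 libraries 4 heart muscle genes (Mb, Myl2, Myh6, Myh7) summed to 152 to 4893 CPM and 6 liver genes to 481 to 15890 CPM. In the other 20 libraries, called heart-free below, the heart sum was at most 0.235 CPM and the liver sum 0.0803 to 241 CPM. Tumour number 1 was titled on 18 of the 19 heart-bearing and on 1 of the 20 heart-free libraries, so that this kind of library and the tumour number cannot be told apart. In the 7 libraries with a heart sum over 4000 CPM, a limit chosen after seeing the data, which came from 7 clones, the highest value of a gene was a median of 1.24 times its lowest over 13415 genes, against 2.23 times in heart-free libraries of the same clones. The labels do not say what sets the heart-bearing libraries apart, and how far they hold RNA of the named clone was not tested, which bears on each comparison that uses them. The heart-free libraries come from 17 clones: 8 low, 6 high, 2 intermediate and 1 without a class. In sorted bulk samples, fewer cells of a type and less RNA per cell cannot be told apart either.

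Promoters of 23 of the 29 genes were matched by symbol in a RefSeq table (GRCm38.p6), with 29 start sites between them. Sequences of 6 of these genes are shown because the results below turn on these genes: Hmgcs1, Fasn and Insig1 differed between a pair of clones, Hmgcs1 and Idi1 were the most closely correlated pair, and Lss and Mvk differed between the kinds of library. Each run is the 250 bases before the start site, 5′ to 3′ on the strand of the gene. Capitals mark the sterol regulatory element TCACNCCAC, the CCAAT box CCAAT and the E-box CACGTG, each searched on both strands, so that ATTGG is a CCAAT box on the other strand. 
Hmgcs1, plus strand, chr13:119690101-119690350: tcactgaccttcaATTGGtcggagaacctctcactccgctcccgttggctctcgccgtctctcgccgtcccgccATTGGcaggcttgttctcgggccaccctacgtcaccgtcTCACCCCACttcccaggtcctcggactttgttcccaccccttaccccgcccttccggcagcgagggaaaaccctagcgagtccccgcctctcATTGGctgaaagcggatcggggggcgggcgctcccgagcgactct
Idi1, plus strand, chr13:8885356-8885605: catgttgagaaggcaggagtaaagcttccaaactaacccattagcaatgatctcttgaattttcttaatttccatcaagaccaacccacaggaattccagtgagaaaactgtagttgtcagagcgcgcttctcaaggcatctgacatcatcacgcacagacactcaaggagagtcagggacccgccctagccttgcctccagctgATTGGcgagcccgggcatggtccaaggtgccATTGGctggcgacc
Mvk, plus strand, chr5:114444019-114444268: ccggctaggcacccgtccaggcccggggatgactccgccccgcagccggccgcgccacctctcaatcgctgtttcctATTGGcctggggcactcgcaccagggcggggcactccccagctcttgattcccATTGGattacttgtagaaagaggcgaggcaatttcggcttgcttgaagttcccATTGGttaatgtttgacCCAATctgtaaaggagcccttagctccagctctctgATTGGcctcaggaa
Lss, plus strand, chr10:76531355-76531604: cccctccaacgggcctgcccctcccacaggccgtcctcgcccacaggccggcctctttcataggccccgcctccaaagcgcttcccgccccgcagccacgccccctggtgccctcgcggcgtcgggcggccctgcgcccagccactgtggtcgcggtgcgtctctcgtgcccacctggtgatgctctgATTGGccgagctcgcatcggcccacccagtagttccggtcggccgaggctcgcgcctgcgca
Insig1, plus strand, chr5:28071162-28071411: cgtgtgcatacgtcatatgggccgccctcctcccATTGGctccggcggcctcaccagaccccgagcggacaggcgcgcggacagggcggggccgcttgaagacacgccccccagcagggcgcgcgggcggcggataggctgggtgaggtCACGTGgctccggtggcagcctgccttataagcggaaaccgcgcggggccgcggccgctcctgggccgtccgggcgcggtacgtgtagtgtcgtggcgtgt
Fasn, minus strand, chr11:120824548-120824797: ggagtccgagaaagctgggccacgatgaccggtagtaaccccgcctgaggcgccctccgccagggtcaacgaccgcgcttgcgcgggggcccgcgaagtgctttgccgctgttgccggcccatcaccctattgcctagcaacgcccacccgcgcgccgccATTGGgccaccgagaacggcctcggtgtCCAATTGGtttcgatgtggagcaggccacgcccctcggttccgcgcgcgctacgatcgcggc

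The CCAAT box was the commonest of these letters among the pathway genes. In the window from 250 bases before to 50 bases after the start site, it stood in 21 of the 29 promoters (72.4%), against 12289 of 32851 promoters of all genes (37.4%). Counted by gene, 20 of 23 pathway genes held it in at least 1 promoter (87%), against 41.1% of all genes. All 9 squalene to cholesterol genes with a promoter had it, as did 5 of 6 mevalonate genes and 3 of 5 fatty acid genes. Mvk, which phosphorylates mevalonate, had 5 CCAAT boxes and Hmgcs1 had 4, of which the last lies after the start site. In Fasn a pair of the 3 boxes overlaps, 1 on each strand. The sterol element in these exact letters was found in 1 of 29 promoters (3.45%), that of Hmgcs1, 137 bases before the start, against 1.24% of all promoters. The E-box stood in 4 of 29 (13.8%), those of Hsd17b7, Insig1, Sc5d and Dhcr7, against 7.15% of all promoters, and overlapped no other motif. A match is a description of letters and not of binding.

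In heart-free libraries all 29 genes were expressed in each of the 17 clones, the lowest value being that of Idi1 in clone yfp_6419c1 at 7.27 CPM. To set genes side by side, levels were divided by exon length. That length is the union of all annotated exons of a gene, not that of a single transcript, so the order depends on the annotation. By this measure the fatty acid desaturase gene Scd2 stood highest, with a median of 195 CPM per kb over 20 libraries (range 111 to 303). Me1, the cytosolic malic enzyme that supplies NADPH, followed at 57.7 (35.8 to 92.9), then Srebf2 at 51.3 (36.6 to 82.9) and Acly, which makes cytosolic acetyl-CoA from citrate, at 50.5 (30.4 to 108). The ranges of Me1, Srebf2 and Acly overlapped widely, whereas the lowest Scd2 value lay above the highest of all these genes. At the low end stood Acaca at 3.23 (1.53 to 6.48), which encodes the acetyl-CoA carboxylase that commits acetyl-CoA to fatty acids, then Idi1 at 4.41 and Hsd17b7 at 4.43. Of the SREBP genes, Srebf1 had a median of 35.6 CPM per kb (21.9 to 42.9) and Srebf2 stood above it.

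**Figure D1:**
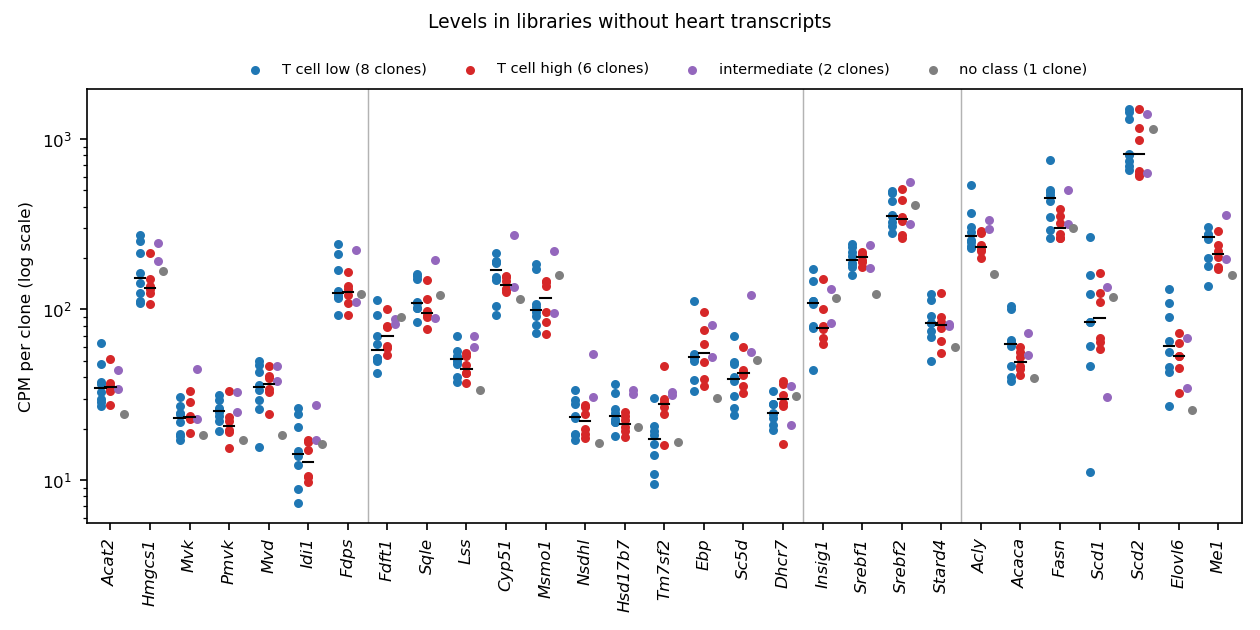
CPM per clone (log axis) of the 29 genes in heart-free libraries, ordered by pathway step, with 1 point per clone and black lines at the medians of the T cell low (blue) and T cell high (red) clones. The classes overlap for all 29 genes, Scd1 covers the widest range (11.2 to 266 CPM) and Srebf1 the narrowest.

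Between clones the genes varied about as much as other genes do. The SD of log2 CPM over the 17 heart-free clones had a median of 0.43 over the 29 genes, against 0.41 over all 13611 genes kept. Srebf1, the least variable, had an SD of 0.22 and ranged from 124 CPM in clone yfp_7062c3 to 242 CPM in clone yfp_6419c5. Scd1, which encodes the desaturase that makes monounsaturated fatty acids, had the largest SD, 1.07. It was at 11.2 CPM in clone yfp_6419c1 and 30.6 CPM in clone yfp_7160c5, and at 266 CPM in clone yfp_6421c2. Scd2, which encodes a related desaturase and also lies on chromosome 19, had an SD of 0.53 and was at 738 CPM in clone yfp_6419c1, so that the lowest Scd1 clone was not the lowest for Scd2. Next in spread were Elovl6, the elongase of palmitate, with an SD of 0.63, Tm7sf2, a sterol reductase, with 0.60, and Sc5d, the sterol desaturase, with 0.59.

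Some clones stood high or low in both arms of the pathway. Clone yfp_6422c5, an intermediate clone, held the highest CPM of 10 of the 29 genes, and clone yfp_2699c4, a T cell low clone, that of 8. The lowest CPM of 7 genes was in clone yfp_7062c3, of 6 in clone yfp_6419c1 and of 6 in clone yfp_6555c3. These counts depend on the scaling: with TMM, yfp_6419c5 was lowest for Hmgcs1 and Fasn in place of yfp_6555c3. The same counts over all genes were not made. In yfp_6422c5 the sterol desaturase gene Sc5d was at 122 CPM, while no other clone exceeded 69.8 CPM, and Nsdhl, a sterol dehydrogenase, was at 54.9 CPM, while no other clone exceeded 33.9 CPM. When each gene was standardised over the 17 clones and averaged, yfp_6422c5 stood at 1.65 for the 18 mevalonate and squalene to cholesterol enzymes, followed by yfp_2699c4 at 0.79, yfp_6694c2 at 0.64 and yfp_6421c2 at 0.50. Clones yfp_6419c1, yfp_6419c5 and yfp_6556c3 stood lowest, at -0.74, -0.72 and -0.71. For the 7 fatty acid genes, yfp_2699c4 led at 1.66, followed by yfp_6422c5 at 1.09 and yfp_6421c2 at 1.06, and yfp_6419c1 was lowest at -0.75. In other clones the arms had opposite signs, such as yfp_7160c5 (sterol 0.18, fatty acid -0.60) and yfp_6419c4 (-0.50 and 0.12). The 6 T cell high clones lay between -0.72 and -0.02 for the fatty acid genes and between -0.56 and 0.29 for the sterol enzymes, both within the range of the 8 low clones.

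**Figure D2:**
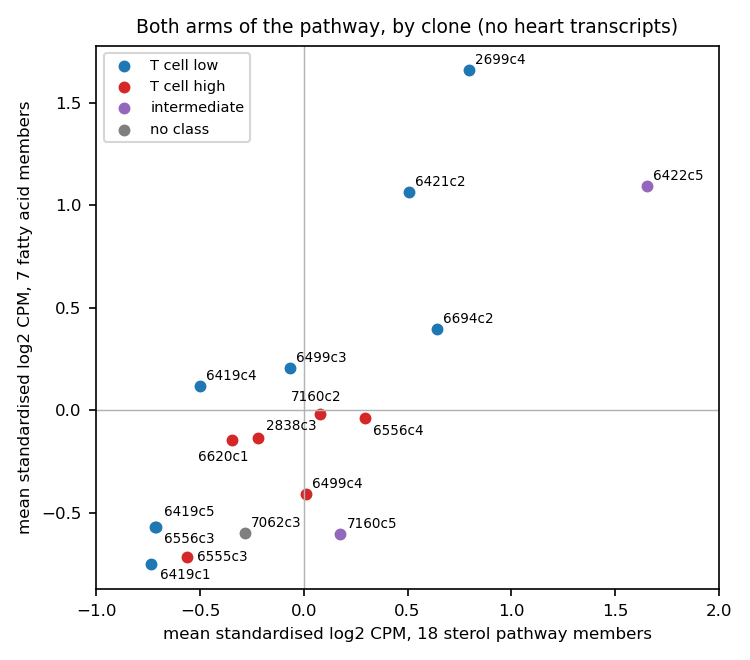
Mean standardised log2 CPM of the 18 sterol pathway enzymes (x axis) and of the 7 fatty acid genes (y axis), with 1 labelled point per heart-free clone, coloured by class. Clones yfp_6422c5, yfp_2699c4 and yfp_6421c2 lie at the upper right and clones yfp_6419c1, yfp_6419c5 and yfp_6556c3 at the lower left.

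Pairs of pathway genes followed each other across the 17 clones more closely than they followed other genes. These correlations are descriptions across clones, some of which are sisters of 1 parent line and share it. The median Pearson r was 0.43 over the 153 pairs of sterol enzymes, 0.42 over the 21 pairs of fatty acid genes and 0.39 over the 126 pairs across the arms, against -0.003 between sterol enzymes and all other genes. The closest pairs were Hmgcs1, which condenses acetyl units into HMG-CoA, with Idi1, the isomerase of the isoprene unit (r = 0.90), Msmo1, a sterol oxidase, with Scd2 (0.86), Idi1 with Sc5d (0.85), and Acaca with Fasn (0.84). Ebp and Dhcr7 did not follow the other sterol enzymes (r = -0.03 and -0.06 with the mean of the rest), and Tm7sf2 did so weakly (0.31). Without clone yfp_6422c5 the median of the sterol pairs was 0.28, and without both yfp_6422c5 and yfp_2699c4 the 3 medians were 0.24, 0.24 and 0.25. Of the genes outside the set, those most like the mean of the sterol enzymes included Gm13502 (r = 0.81), Hsd17b12 (0.80), Setd8 (0.78), Tmem132a (0.77), Homer1 (0.77), Gm14680 (0.76) and Slain2 (0.75).

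None of the 29 genes passed between T cell high and T cell low clones in the edgeR quasi-likelihood test over heart-free libraries. At a Benjamini-Hochberg adjusted p under 0.05, 0 of 29 genes passed, as did 0% of the 15635 genes tested. At an unadjusted p under 0.05 there were 2 of the 29 genes and 2095 of all genes (13.4%). DESeq2 and limma called 0 of the 29 as well, while DESeq2 called 299 of all genes and limma 0. The log2 difference, high minus low, had a median of -0.11 over the 29 genes, 8 of which were positive, and of -0.0023 over all genes. Single clones moved it: it was -0.02 with 14 positive without yfp_2699c4, -0.05 with 12 without yfp_6694c2, -0.06 with 12 without yfp_6555c3, -0.06 with 10 without yfp_6421c2 and -0.19 with 5 without yfp_6556c4. The groups overlapped for all 29.

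Among the squalene to cholesterol enzymes the smallest p belonged to Tm7sf2 (ENSMUSG00000024799, chr19:6062821-6068373), the sterol 14-reductase. Its level in the 8 T cell high libraries had a lowest, median and highest value of 15.9, 26.7 and 46.5 CPM, and in the 9 low libraries of 9.49, 17.1 and 30.0 CPM. The median was higher in the high libraries and the ranges overlapped. Over clones it was at 28.7 ± 10.1 CPM in high (SD, n = 6) and 17.4 ± 6.48 CPM in low (n = 8), a log2 difference of 0.72 ± 0.26 (SE, edgeR adjusted p = 0.281). Dhcr7, which encodes the last enzyme of one route to cholesterol, ran from 10.9 through 27.8 to 37.8 CPM in high and from 19.7 through 24.8 to 33.7 CPM in low libraries, a difference of 0.24 ± 0.19 over clones. Hsd17b7, a sterol ketone reductase, ran from 17.9 through 21.8 to 28.9 CPM in high and from 18.1 through 24.6 to 36.5 CPM in low libraries, with a log2 difference of -0.24 ± 0.17. Sqle, the squalene epoxidase and a rate-limiting step, had a median of 97.6 CPM (76.7 to 154) in high and 110.0 CPM (84.3 to 161) in low libraries. For all 4 the ranges of the classes overlapped.

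None of the mevalonate enzymes passed between the classes. Hmgcs1 had a median of 138 CPM (108 to 214) in high and of 163 CPM (109 to 292) in low libraries, and its log2 difference over clones was -0.26 ± 0.26. Pmvk, the kinase after Mvk, had a median of 22.6 CPM (15.4 to 37.1) in high and of 25.2 CPM (19.2 to 31.4) in low libraries. Log2 differences of the 7 mevalonate genes ran from -0.26 to 0.14.

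None of the regulators passed either. Srebf1 was at a median of 203 CPM (177 to 218) in high and 204 CPM (159 to 242) in low libraries, and Srebf2 at 366 CPM (263 to 596) and 356 CPM (280 to 507). Over clones the order was reversed, with medians of 202 and 195 CPM for Srebf1 and of 341 and 354 CPM for Srebf2. Their log2 differences were -0.00 ± 0.10 and -0.06 ± 0.20. Insig1, itself a target of SREBP and a usual sign of its activity, was at 77.9 CPM (45.1 to 151) in high and 112 CPM (44.4 to 173) in low libraries, with a difference of -0.23 ± 0.29.

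All 7 fatty acid genes had a negative difference, from -0.51 to -0.08, and none passed. Fasn (ENSMUSG00000025153, chr11:120805846-120824547), the fatty acid synthase, ran from 162 through 299.9 to 394 CPM in the high libraries and from 263 through 468 to 830.4 CPM in the low ones. Over clones it was at 310.3 ± 52.5 CPM in high and 443 ± 155 CPM in low, a log2 difference of -0.51 ± 0.22 (edgeR adjusted p = 0.353). The upper part of the low range was taken by clone yfp_2699c4. Acly had a median of 243 CPM (163 to 287) in high and 283 CPM (229.8 to 569) in low libraries, with a difference of -0.34 ± 0.19. Acaca had 49.6 CPM (26.1 to 60.0) and 64.4 CPM (38.1 to 111), with -0.38 ± 0.23, and Elovl6 53.5 CPM (32.5 to 111) and 64.8 CPM (27.1 to 136), with -0.40 ± 0.30. Scd1 was at 102 CPM (58.7 to 165) in high and 84.0 CPM (11.2 to 266) in low libraries, and Scd2 at 1073 CPM (606 to 1653) and 819 CPM (655 to 1574). Of the 8 high libraries 3 are of clone yfp_2838c3. Over clones the medians were 89.6 and 84.0 CPM for Scd1 and 818 and 810.5 CPM for Scd2, with fitted differences of -0.08 ± 0.50 and -0.11 ± 0.28.

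Among markers of other cells none of those tested passed between the classes. The summed level of 7 pan-leukocyte markers, all detected in both classes, was 27.2 to 391 CPM in high and 25.5 to 237 CPM in low libraries, with medians of 145 and 92.0. That of 7 macrophage markers was 103 to 3069 and 89.3 to 1642 CPM, with medians of 874 and 306. Sums of 6 adipocyte markers were 4.4 to 33.6 and 4.32 to 37.8 CPM, with Lep at 0 in both classes, and those of 4 sebaceous gland markers 5.61 to 59.4 and 2.87 to 112 CPM, with Awat1 at 0 in high. The fibroblast sum had medians of 376 CPM in high and 772 CPM in low libraries, and stood at 12710 CPM in the library of high clone yfp_6555c3, where no other heart-free library exceeded 2956 CPM. The endothelial sum had medians of 8.83 and 14.9 CPM and the epithelial sum of 8026 and 6922 CPM. In the yfp_6555c3 library the endothelial sum was 166 CPM, where no other heart-free library exceeded 31.6 CPM. All 5 endothelial and all 5 epithelial markers had a positive fitted difference, with medians of 1.23 and 0.38. So did 6 of 7 pan-leukocyte, 7 of 7 macrophage and 5 of 6 fibroblast markers, with medians of 1.65, 1.63 and 1.04. Of 2 adipocyte and 2 sebaceous gland markers tested, 1 each was positive. With the pan-leukocyte level as a covariate in edgeR, 0 of the 29 genes passed. Their median difference was -0.09 with 7 positive, in place of -0.11 with 8. The part of the other markers in the differences above was not tested.

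With all 32 classed libraries summed into 6 high and 9 low clones, 0 of the 29 genes and 0% of 18551 genes passed in edgeR, with 3 and 2176 at an unadjusted p under 0.05. DESeq2 and limma again called 0 of the 29, and 123 and 0 of all genes. This comparison shares its heart-free libraries with the one above and is not independent of it. Fasn was at 325 ± 31.5 CPM in high and 411 ± 106 CPM in low clones, a log2 difference of -0.41 ± 0.17 (edgeR adjusted p = 0.371). Me1 followed with -0.32 ± 0.15 and Acly with -0.32 ± 0.15. Of the 7 fatty acid genes 1 had a positive difference, of 0.14. The median difference of the 29 genes was -0.14. It was -0.07 without yfp_2699c4, -0.07 without yfp_6694c2, -0.08 without yfp_7160c2, -0.09 without yfp_6422c1 and -0.07 with totals alone. Other settings lowered it, to -0.22 with parent line and class as the replicate, -0.20 with liver markers as a covariate and -0.18 without yfp_6419c5. With parent line and class as the replicate, 7 of the 29 and 2523 of 18448 genes had an unadjusted edgeR p under 0.05.

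A pair of parent lines held a clone of each class, with 1 heart-free library per clone, and no test was run. In the first line the T cell high clone yfp_6499c4 was lower than the low clone yfp_6499c3 in 19 of the 29 genes, and in the other the high clone yfp_6556c4 was higher than the low clone yfp_6556c3 in 23. Fasn was at 278 against 468 CPM in the first line and at 351 against 291 CPM in the other, and Sqle at 92.8 against 161 CPM and at 148 against 110.0 CPM. The lines thus ran in opposite directions for these genes. Of the 29, 9 were higher in the high clone of both lines, among them Insig1 (101 against 80.3 and 151 against 112 CPM) and Mvk, 5 were lower in both, among them Elovl6 (53.5 against 90.1 and 32.5 against 42.8 CPM) and Me1, and 15 were mixed. These counts use CPM without TMM factors, which were 0.9535 and 1.02 (high and low clone) in the first line and 0.8846 and 0.9738 in the other. Directions near 0 therefore depend on the scaling, such as those of Hmgcs1, 1 of the 5, at log2 -0.0591 and -0.0037. The same counts over all genes were not made.

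The 2 intermediate clones were far apart in several genes. Sc5d was at 122 CPM in yfp_6422c5 and 56.1 CPM in yfp_7160c5, Msmo1 at 219 and 94.9 CPM, Scd1 at 136 and 30.6 CPM, and Fasn at 502 and 315 CPM. Against the 8 low clones, 0 of the 29 genes and 0% of 17555 genes passed in edgeR, with 4 and 1134 at an unadjusted p under 0.05. The largest differences were those of Sc5d, 1.19 ± 0.36 (edgeR adjusted p = 0.408), and Nsdhl, 0.89 ± 0.28. Against the 6 high clones, high minus intermediate, 0 of 29 and 0% of 17555 passed, with 4 and 467 at an unadjusted p under 0.05. Nsdhl stood at -0.98 ± 0.30 and Sc5d at -1.11 ± 0.37. Both fits share the intermediate clones and each shares its other clones with the comparison of the classes. DESeq2 and limma were not run on them.

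Clones yfp_2699c4 (T cell low) and yfp_2838c3 (T cell high) had the most heart-free libraries, 2 and 3, which allowed a test between the clones, though not between the classes. In yfp_2838c3, 7 of the 29 genes were lower and 0 higher (24.1% and 0%), against 9.17% of 15782 genes lower and 9.08% higher, 18.2% in all. The 7 comprised the mevalonate enzymes Hmgcs1 and Acat2, the last-step enzyme Dhcr7, the regulator Insig1 and the fatty acid genes Acly, Acaca and Fasn. Without tumour 3 or tumour 4 of yfp_2699c4, which leaves 1 library in that clone, 0 of the 29 passed, with 75 and 51 of all genes. Without tumour 2 of yfp_2838c3 there were 14 of the 29 and 3051 of all genes, and without tumour 4 there were 4 of the 29, of which 3 were lower, and 2402 of all genes.

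Hmgcs1 was at 143, 139 and 115 CPM in the 3 libraries of yfp_2838c3 and at 253 and 292 CPM in the 2 of yfp_2699c4, a log2 difference of -1.10 ± 0.18 (edgeR adjusted p = 0.0146). Every library of yfp_2838c3 lay below both of yfp_2699c4. Insig1 showed the same order, at 89.2, 60.7 and 45.1 CPM against 171 and 173 CPM, with -1.45 ± 0.31 (adjusted p = 0.0288). Fasn was at 394, 162 and 277 CPM against 688 and 830.4 CPM, with -1.51 ± 0.37 (adjusted p = 0.0407), the largest difference of the 7. Acly was at 279, 163 and 245 CPM against 501 and 569 CPM, with -1.29 ± 0.24, and Acaca at 56.6, 26.1 and 46.8 CPM against 91.8 and 111 CPM, with -1.29 ± 0.32. In all 3 fatty acid genes tumour 3 of yfp_2838c3 was the lowest library. Acat2 differed by -0.60 ± 0.14 and Dhcr7, at 20.1, 10.9 and 19.6 CPM against 33.0 and 33.7 CPM, by -1.05 ± 0.28 (adjusted p = 0.0498).

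Other genes of the set did not pass between these clones. Srebf1 was at 209.6, 218 and 197 CPM against 219 and 214 CPM, and Scd2 at 1653, 1459 and 1404 CPM against 1574 and 1406 CPM. In both genes the libraries overlapped. Ebp, a sterol isomerase, was at 49.8, 52.2 and 44.5 CPM in yfp_2838c3 and at 31.1 and 35.3 CPM in yfp_2699c4, so it stood on the opposite side without passing (0.50 ± 0.16, adjusted p = 0.0811). Pmvk did so as well (0.45 ± 0.16). Of the 29 genes, 16 had all libraries of yfp_2838c3 below those of yfp_2699c4, 3 had them above, and 10 overlapped. Of all genes tested, 25.4% had them below and 29.6% above.

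**Figure D3:**
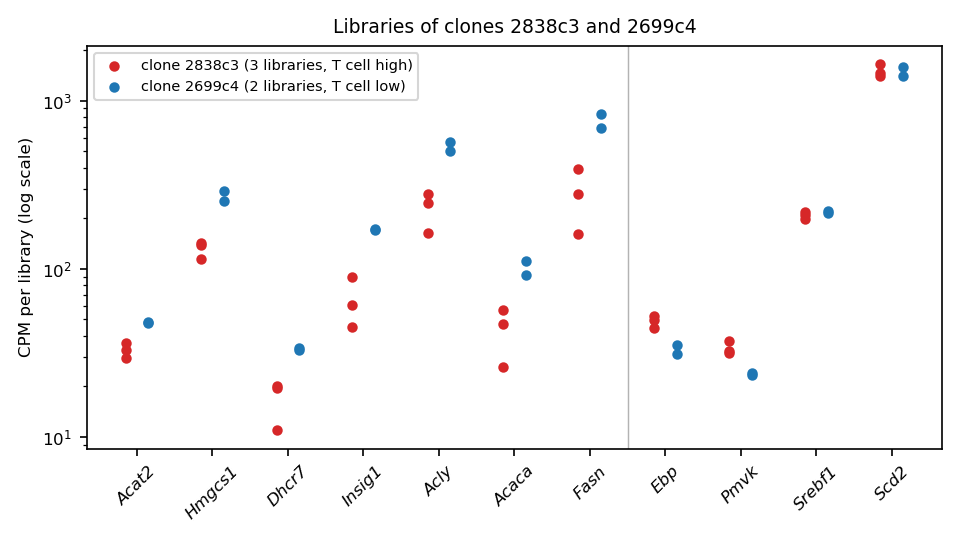
CPM per library (log axis) of the 7 genes that passed between the clones (left of the grey line) and of Ebp, Pmvk, Srebf1 and Scd2 (right), with 1 point per heart-free library of clone yfp_2838c3 (red) and yfp_2699c4 (blue). All red points lie below the blue ones on the left, above them for Ebp and Pmvk, and among them for Srebf1 and Scd2.

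The neighbouring lipid pathways were not uniformly lower in yfp_2838c3. Of 18 genes of elongation, desaturation and activation, 16 were tested, with Acsl1 (2.78 ± 0.21) and Acss2 higher and Slc25a1, the citrate carrier (-0.79 ± 0.15), and Fads1 lower. Cpt1a, the entry enzyme of fatty acid oxidation, was higher (1.14 ± 0.17), the only 1 of 10 oxidation genes to pass. In glycerolipid assembly, Lpin2 and Agpat2 were higher and Lpin1 lower, of 6. Of 6 further sterol and isoprenoid enzymes, Ggps1 and Fdxr were lower, of 10 genes of cholesterol export, transport and storage, Stard5 was higher and Stard3 lower, of 6 NADPH genes, Pgd was lower, and of 8 genes of SREBP processing and LXR, 0 passed. Markers moved between these libraries too. The liver sum was 11.1, 15.6 and 37.2 CPM in yfp_2838c3 against 0.816 and 0.726 CPM, and the sebaceous gland sum 30.9, 14.6 and 7.41 CPM against 112 and 86.7 CPM, with Krt79 lower in yfp_2838c3 (-2.56 ± 0.60), Alb, the only liver marker tested, higher (4.79 ± 0.66) and the adipocyte gene Cidec higher (1.20 ± 0.26). The other adipocyte marker tested, Plin4, stood at -0.55 and did not pass. The macrophage sum was 231, 292 and 3069 CPM against 231 and 421 CPM. Their part in the differences was not tested.

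In 15 clones with a library of each kind, the heart-bearing libraries were set against the heart-free ones with the same clone in their title. The fit took the heart-bearing libraries of the 15 clones as independent samples. Whether they share RNA was not tested, and if they do, the n and p-values below overstate the replication. Among 29 genes 12 passed (41.4%), against 57.9% of 19419 genes, so that the set was called no more often than the background. Of these, 7 were higher in heart-bearing libraries (24.1%, against 30.7% of all genes) and 5 were lower (17.2%, against 27.2%). Of all calls, 53.0% were higher. With scaling by library totals alone, chosen after seeing the data, that share was 63.8%, the median difference of all genes was 0.14 in place of 0.03, and 14 of the 29 were higher and 3 lower. The higher calls were the less stable: with a clone left out they numbered 4 to 9, and 4 without any of yfp_6419c5, yfp_6499c3, yfp_6499c4, yfp_6555c3, yfp_6556c3, yfp_6694c2 or yfp_7160c2, while the lower calls numbered 5 or 6. DESeq2 called 11 higher and limma 5, and both called 5 lower.

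The sterol enzymes that passed were mostly higher. Lss (chr10:76531588-76557138), which folds squalene epoxide into lanosterol, was at 90.1 ± 21.4 CPM with heart transcripts and 50.8 ± 10.4 CPM without (SD, n = 15 clones), higher in 15 of 15 clones, a log2 difference of 0.70 ± 0.11 (edgeR adjusted p = 4.01e-05). Its lowest, median and highest values were 86.8, 110.6 and 113.5 CPM in heart-bearing high libraries and 37.2, 44.6 and 55.6 CPM in heart-free high libraries, which did not overlap. In low libraries they did, at 49.8 to 117 CPM with and 37.6 to 73.2 CPM without heart transcripts. Hsd17b7 was higher in 13 of 15 clones (0.41 ± 0.10), as were Mvk (0.36 ± 0.11), Fdft1, the squalene synthase (0.24 ± 0.10), and Dhcr7 (0.18 ± 0.07). Nsdhl was higher in 14 of 15 (0.27 ± 0.11). Tm7sf2 was the exception, lower in 13 of 15 clones, at 17.1 ± 4.21 against 24.3 ± 9.40 CPM (-0.55 ± 0.12, adjusted p = 0.000909). Hmgcs1 (0.26 ± 0.12) and Sqle (0.20 ± 0.10) did not pass.

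The fatty acid genes ran in both directions. Scd1 was higher in 13 of 15 clones, at 178 ± 54.0 against 101 ± 65.0 CPM (0.91 ± 0.27, adjusted p = 0.00745). In clone yfp_6419c1 it was at 190.0 CPM with heart transcripts and 11.2 CPM without. Me1 was lower in 14 of 15 clones, at 167 ± 43.2 against 238 ± 58.7 CPM (-0.62 ± 0.09, adjusted p = 1.95e-05), Elovl6 in 12 (-0.58 ± 0.12) and Acly in 11 (-0.28 ± 0.09). Fasn, Acaca and Scd2 did not pass, with differences of -0.17, -0.04 and -0.18. Of the regulators only Stard4, a cholesterol carrier, passed, lower in 11 of 15 clones (-0.31 ± 0.10). Srebf1 and Srebf2 stood at -0.05 ± 0.06 and -0.08 ± 0.09 and Insig1 at 0.27 ± 0.13.

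**Figure D4:**
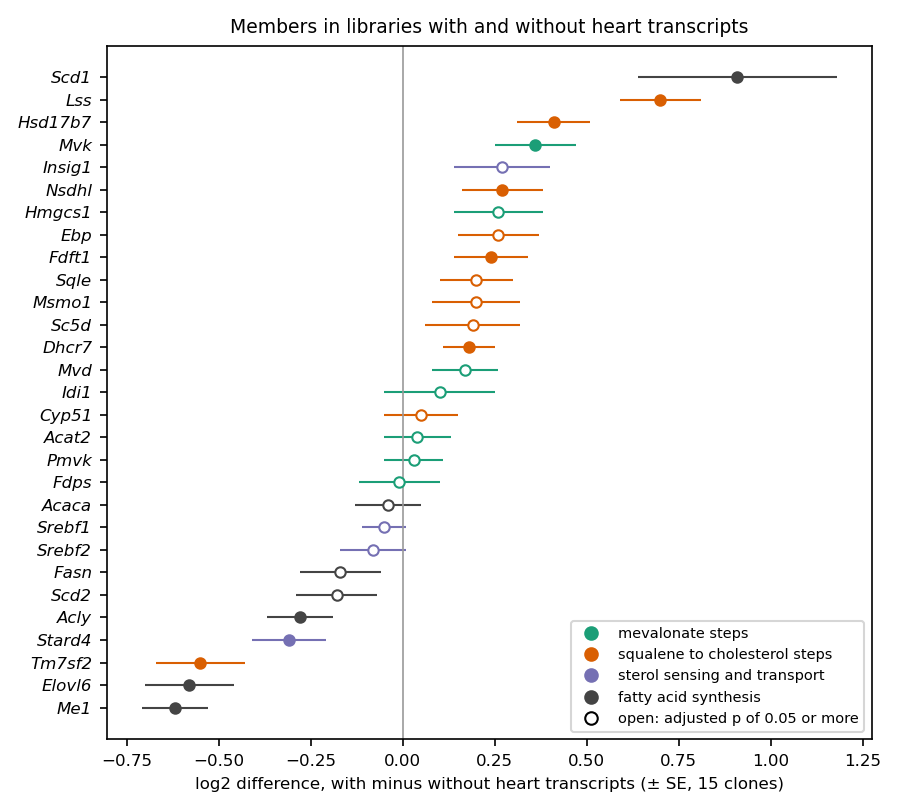
Log2 difference (± SE) of each of the 29 genes between libraries with and without heart transcripts, titled with the same 15 clones. Each gene is 1 point, coloured by pathway step and filled where the adjusted p is under 0.05. Scd1 (0.91) and Lss (0.70) lie furthest to the right and Me1 (-0.62) and Elovl6 (-0.58) furthest to the left.

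Several genes of neighbouring lipid pathways had larger differences than any of the 29. Of 17 tested genes of elongation, desaturation and activation, 6 were higher and 10 lower. Thrsp, a lipogenic regulator, was at 4.09 against 0.0366 CPM (6.47 ± 0.47) and Mlxipl, a carbohydrate-sensing transcription factor, at 20.6 against 2.48 CPM (2.87 ± 0.31). Of 6 glycerolipid genes 5 were higher, led by Lpin1 (1.85 ± 0.20) and Agpat2 (0.73 ± 0.09), and 0 were lower. Of 10 oxidation genes 5 were higher, among them Ppara, the fatty acid receptor (3.30 ± 0.47), and 0 lower. Of 10 genes of cholesterol export, transport and storage, 5 were higher and 2 lower, with Stard3 at -0.73 ± 0.10 and Abcg1, a sterol exporter, at 2.13 ± 0.40. Of 8 genes of SREBP processing and LXR, 4 were higher, led by Mylip (2.32 ± 0.34), and 3 lower, led by Mbtps1, a protease that cuts SREBP (-0.42 ± 0.08). Of 6 further sterol and isoprenoid enzymes, 1 was higher and 4 lower, among them Dhdds (-0.29 ± 0.07). Of 6 NADPH genes, 2 were higher, led by Idh2 (0.50 ± 0.09), and 2 lower, led by Taldo1 (-0.49 ± 0.07).

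Markers of other cells differed between the kinds of library as well. All 6 liver markers passed, higher in heart-bearing libraries, as did 5 of 5 endothelial, 6 of 6 fibroblast and 7 of 7 pan-leukocyte markers, 4 of 7 macrophage markers and 2 of 3 adipocyte markers tested. The endothelial sum was 25.2 to 230.3 CPM with and 3.31 to 166 CPM without heart transcripts, and the fibroblast sum 555 to 5897 against 71.4 to 12710 CPM. The adipocyte sum was 15.2 to 77.6 against 3.19 to 37.8 CPM, with Lep at 0 in both. Of 5 epithelial markers 3 were lower and 0 higher, and the sebaceous gland gene Krt79 was lower (-1.86 ± 0.35). Their part in the differences of the 29 genes was not tested.

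The 29 genes varied less between clones where heart transcripts were present, and the median SD over all genes was lower there too. Over 18 heart-bearing clones the median SD of log2 CPM was 0.22 for the 29 genes and 0.33 for all 15545 genes, and 27 of the 29 had a smaller SD than in heart-free libraries. The exceptions were Lss and Me1. Over the 17 heart-free clones the median SD of all 13611 genes kept was 0.41. The share of all genes with a smaller SD was not computed. In the 7 libraries with a heart sum over 4000 CPM, the highest value of a gene was 1.07 to 1.37 times its lowest, with a median of 1.19 over the 29. In heart-free libraries of the same 7 clones the median was 2.41, and the ratio was wider for 29 of the 29 genes and for 96.3% of all 13415. Lss was at 95.7 to 117 CPM in these 7 libraries and Scd1 at 190.0 to 228 CPM, although in heart-free libraries Scd1 ranged from 11.2 to 266 CPM. Acly covered 224 to 240.1 CPM there and 160.4 to 569 CPM in heart-free libraries.

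**Figure D5:**
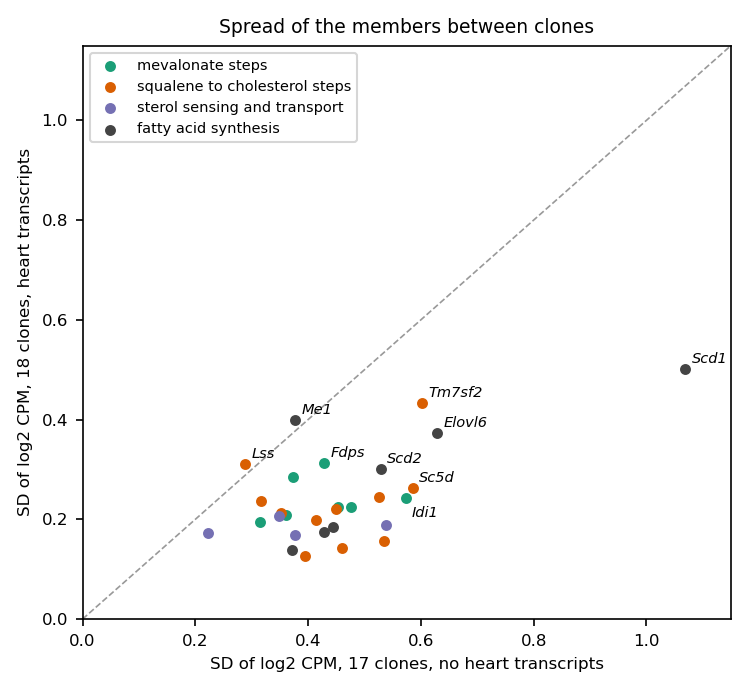
SD of log2 CPM of each of the 29 genes over the 17 heart-free clones (x axis) and over the 18 heart-bearing clones (y axis), coloured by pathway step, with the dashed line at equal SD. All points but Lss and Me1 lie below the line, and Scd1 lies furthest right at 1.07.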

How the data were processed

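The authors deposited a table of raw counts per gene. STAR, featureCounts and the build mm10 are named per the submitters' processing notes. Their versions, the annotation and the strand setting are not known here, so reads of overlapping or antisense genes may be shared, and near-identical copies were not resolved. For 214 repeated symbols the largest row kept the plain name. Positions and exon lengths are from GENCODE M21 (GRCm38), which held 37607 of the 39017 identifiers.

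CPM is the count divided by the library total, scaled to one fixed total. Tests used edgeR 4.0.16 in R 4.3.3 (filterByExpr, TMM scaling, glmQLFit, glmQLFTest) over all genes kept, on counts summed per clone (per clone and kind of library with the clone as a block, or per library between clones yfp_2838c3 and yfp_2699c4), with Benjamini-Hochberg adjusted p under 0.05. DESeq2 1.42.0 and limma 3.58.1, other scalings, filters, replicates, covariates and left-out clones were alternatives, of which scaling by totals alone, within-clone differences in clones with high heart sums only, and pairs without named clones were chosen after seeing the data. Libraries with a summed CPM of Myh6, Myh7, Myl2 and Mb under 10 were called heart-free. Standardised levels, SDs and correlations used TMM-scaled log2 CPM with a prior count of 2. Promoter sequences are RefSeq, GRCm38.p6. The tumour number of a title was not taken to pair libraries. The 3 clones without a class entered no comparison between classes.

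The members, lists, division and tests were chosen with earlier results of these data known. All members were accounted for. Values by library were given for the 8 with the smallest p between the classes in heart-free libraries and for Srebf1, Srebf2, Insig1, Hmgcs1, Sqle, Fasn, Scd1 and Scd2. Of each pathway list, genes that passed and the 2 with the smallest p could be named, and of other genes the 8 most like the sterol enzymes. The remaining genes named beside these were chosen after their values were seen. Some items are not reported here.

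The tests were checked on simulated data in which 200 genes had been altered, except those with the intermediate clones. Genes were drawn independently from negative binomial distributions with the fitted spread, and the altered ones were not among the lowest expressed. Correlation between genes or sister clones and RNA of other tissues were not modelled, so the shares below may not hold for these data. In the comparison of classes in heart-free libraries (15635 genes) edgeR recovered 45% of the alterations of log2 1 and 85% of those of log2 2. With all libraries (18551 genes) the shares were 79% and 91%. They were 12% and 83% between clones yfp_2838c3 and yfp_2699c4 (15782 genes) and 83% and 97% within clones (19419 genes). Of the calls made, 0.763%, 6.59%, 9.52% and 3.74% were false in these simulations, in the same order. The 6.59% and 9.52% lay above the nominal level.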

Additional observations from a re-analysis of the deposited data

Results flagged for a closer look

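The highest and lowest clone of each class were compared with the rest by Dixon's ratio for each of the 29 genes and both kinds of library, 116 groups in all. Chance flags about 1 group in 20, and 5 values stood apart. Ebp was at 112 CPM in the heart-free library of clone yfp_6419c1, while the other T cell low clones ran from 33.1 to 54.9 CPM. Acly was at 534 CPM in the heart-free libraries of clone yfp_2699c4, above the 229.8 to 369.6 CPM of the other low clones. In heart-bearing libraries of T cell high clones, Acly was at 259.7 CPM in clone yfp_7160c2, against 232 to 240.1 CPM in the others, and Fasn at 297 CPM in clone yfp_2838c3, against 345 to 360.4 CPM. Pmvk was at 39.4 CPM in the heart-bearing library of low clone yfp_6422c1, against 23.7 to 29.7 CPM in the others.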

How the results depend on the processing

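Between the classes, 0 of the 29 genes passed under each alternative run, in heart-free and in all libraries, with a clone left out in turn included. The number of all genes called moved. In heart-free libraries it was 299 with DESeq2 and 0 to 37 with a clone left out, 37 without clone yfp_2838c3. With all libraries it was 123 with DESeq2, 163 with the kind of library as a block, 13 with the tumour number as a replicate block, where 0 of the 29 passed, and 0 to 16 with a clone left out, 16 without yfp_2838c3. Between clones yfp_2838c3 and yfp_2699c4, 13 of the 29 passed with DESeq2 (4482 genes in all) and 4 with totals alone. With a library left out there were 0 to 14 of the 29 and 51 to 3051 genes. Within clones, 9 to 14 of the 29 (4 to 9 higher) and 10598 to 11446 genes passed with a clone left out. Against intermediate clones 0 of the 29 passed in all settings run. Of all genes, 1 was called in intermediate minus low with all libraries and 1 to 73 with an intermediate clone left out, and 0 to 1 in high minus intermediate. Without clone yfp_6422c5, which leaves 1 clone assumed to vary like the other groups, Cyp51 turned from 0.42 to -0.38 and Me1 from 0.29 to -0.39 in intermediate minus low, while without yfp_7160c5 they were 0.90 and 0.72. Median SDs of the 29 were 0.30 over clones with all libraries, in place of 0.43. The causes were not tested. Clones of 1 line are not independent. Between the classes in heart-free libraries, edgeR was also run with parent line and class as the replicate. The median difference of the 29 was then -0.20 with 5 positive, in place of -0.11 with 8. At an unadjusted p under 0.05 there were 3 of the 29 and 1688 of 15400 genes. Depth did not limit detection, since the lowest heart-free value, of Idi1, was 7.27 CPM.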

Other observations

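In the 3 clones without a class, the heart-free clone yfp_7062c3 had the lowest CPM of 7 of the 29 genes among the 17 heart-free clones. Srebf1 was at 124 CPM, Lss at 33.6 CPM, Acly at 160.4 CPM and Elovl6 at 25.6 CPM there. Scd2, at 1141 CPM, and Fdft1, at 90.6 CPM, were not low in this clone. Acat2 and Nsdhl were lowest in yfp_7062c3 by CPM, but with TMM scaling in yfp_6620c1 and yfp_6419c5. This library had a TMM factor of 0.8777. In the heart-bearing clones yfp_6883c1 and yfp_6883c4, Tm7sf2 was at 7.09 and 14.3 CPM, Me1 at 104 and 133 CPM and Srebf1 at 261 and 239 CPM.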
